A study of Homo sapiens with 3 samples.

Results

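The vector array is the hybridisation of RNA from CAL 27 cells that carry the empty vector, and it was described alone, by the level and rank of its signals. It is 1 of 3 samples in the series and has no replicate, so no level below has an error between cultures and no p-value was computed. CAL 27 is an established line from a poorly differentiated squamous cell carcinoma of the tongue. The cells carried pEGFPC1, a plasmid that drives a green fluorescent protein, without an insert, and the design text speaks of a single empty-vector clone, so the values belong to that clone. The other samples, which are not compared here, were CAL 27 cells with the same plasmid carrying nm23-H1 or nm23-H2. All were grown in the same serum-containing medium, and none is an untransfected line.

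Stratified squamous epithelium is built from basal cells that divide on a laminin-rich basement membrane and from suprabasal layers that stop dividing and mature. Basal cells make the keratin pair KRT5 and KRT14, and the lining mucosa of the mouth switches to KRT4 and KRT13 as its cells rise. Desmosomes hold the layers together, hemidesmosomes and integrins hold the basal layer to its matrix, and the EGF receptor is a main growth signal of these cells. In skin and other cornifying sites, envelope proteins such as involucrin, loricrin and the small proline-rich proteins are cross-linked at the end of this programme. Carcinomas of the tongue keep parts of it to varying degrees.

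The array measured 11963 genes through a probe set of their own, out of 22283 probe sets. Signals are in the units of the deposited values, which ran from 0.1 to 9977.3 over probe sets. As no detection calls are used here, a background was read from 189 genes restricted to tissues such as liver, muscle, brain, eye, testis and blood. The 95th percentile of their signals was 49.2, and this is called the silent-gene level. Over it lay 5046 of the 11963 genes, or 42.2%, and any list's count is to be read against that share. A signal over the level means brighter than nearly all of those genes, and a signal under it does not show that a transcript was absent. Probes differ in how well they bind their targets, so a rank is a rank of signals and not of RNA amounts.

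The array's own controls fell on either side of this level. All 6 probe sets for bioB, the control transcript added near the detection limit, were over it (136 to 314.5), while the 27 probe sets for Bacillus transcripts gave 0.2 to 23.7. Whether Bacillus transcripts were added to this sample is not known here, so their low signals do not test the level. The 3' to 5' signal ratios, a measure of RNA integrity, were 1.75 for ACTB and 0.881 for GAPDH. A further 2169 probe sets had no gene name here and 1043 had several, and these included 42 of the 100 brightest probe sets that are not array controls.

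The markers of squamous epithelium were bright. KRT5, the basal type II keratin, gave 8391 signal units and ranked 5 of all genes. EGFR, the receptor of EGF and TGF-alpha, gave 1100 (rank 284), KRT13, the mucosal type I keratin, 870 (rank 365), and KRT4, its type II partner, 702 (rank 469). All 4 of these markers were over the silent-gene level. The remaining marker of the set, TP63, was not analysed here. Further probe sets were dimmer, 27.2 for KRT4 and 524, 63.1, 47.4, 38.8 and 6.2 for EGFR, so with the lowest probe set of each gene 2 of the 4 stayed over the level set in the same way.

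**Figure D1:**
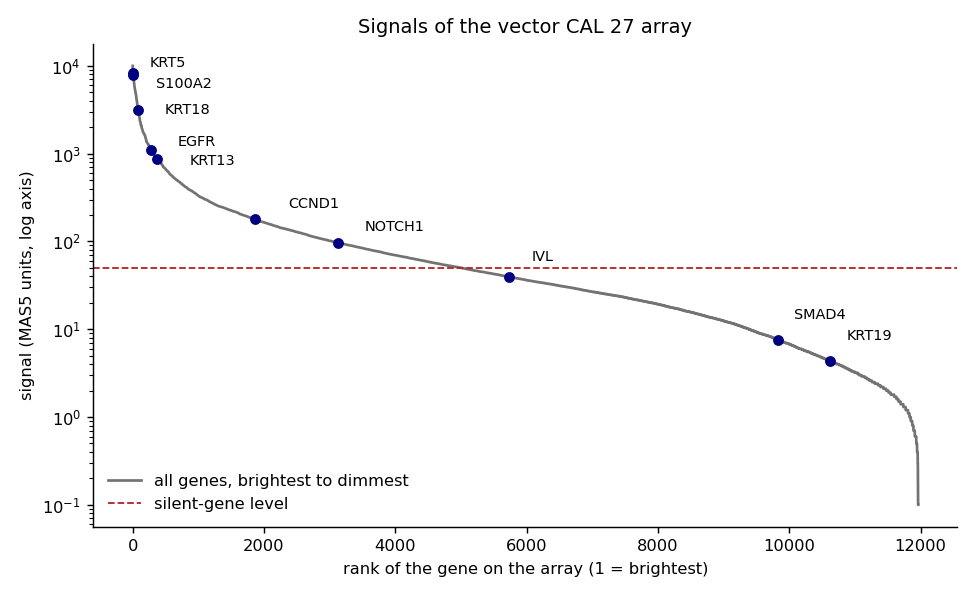
Signal of each of the 11963 genes (MAS5 units, log axis) against its rank, from brightest to dimmest, with the silent-gene level of 49.2 as a dashed line. KRT5 and S100A2 lie at the bright end, CCND1 and NOTCH1 in the middle over the line, IVL under it, and SMAD4 and KRT19 far under it.

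The RefSeq promoter windows of 3 of these markers, with that of KRT20, a keratin of intestinal epithelium that gave 13.4, are shown because a bright and a dim keratin share the same kind of start. Each window runs from 250 bases before the gene's start to 50 after it in GRCh38.p14, and capitals mark TATAA or ATAAA within 40 to 16 bases before the start. KRT5 is at chr12:52520345-52520644, KRT4 at chr12:52814067-52814366, KRT20 at chr17:40885193-40885492, all on the minus strand, and EGFR at chr7:55018767-55019066 on the plus strand.
KRT5: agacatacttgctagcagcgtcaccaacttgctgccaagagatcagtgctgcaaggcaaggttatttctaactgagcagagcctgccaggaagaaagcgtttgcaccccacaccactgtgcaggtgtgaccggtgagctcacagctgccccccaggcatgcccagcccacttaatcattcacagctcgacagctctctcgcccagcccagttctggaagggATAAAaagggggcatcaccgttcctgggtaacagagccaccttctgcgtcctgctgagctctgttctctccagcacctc
KRT4: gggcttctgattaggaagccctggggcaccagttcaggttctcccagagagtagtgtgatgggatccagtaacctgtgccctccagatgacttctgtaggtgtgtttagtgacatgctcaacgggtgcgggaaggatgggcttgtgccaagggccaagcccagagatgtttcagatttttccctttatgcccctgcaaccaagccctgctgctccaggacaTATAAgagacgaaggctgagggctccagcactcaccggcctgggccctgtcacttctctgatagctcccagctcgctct
KRT20: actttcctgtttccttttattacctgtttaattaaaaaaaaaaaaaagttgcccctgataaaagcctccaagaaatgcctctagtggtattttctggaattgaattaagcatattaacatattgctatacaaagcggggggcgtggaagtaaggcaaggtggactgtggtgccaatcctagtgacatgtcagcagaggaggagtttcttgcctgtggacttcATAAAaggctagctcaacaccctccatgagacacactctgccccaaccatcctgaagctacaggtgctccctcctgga
EGFR: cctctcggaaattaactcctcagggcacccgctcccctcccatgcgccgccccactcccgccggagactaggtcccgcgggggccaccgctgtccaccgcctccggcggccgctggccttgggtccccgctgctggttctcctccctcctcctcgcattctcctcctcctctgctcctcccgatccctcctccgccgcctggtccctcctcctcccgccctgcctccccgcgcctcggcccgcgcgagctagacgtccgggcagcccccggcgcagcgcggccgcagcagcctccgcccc
The motif starts 29 bases before the start in KRT5 and in KRT4, and 28 bases before it in KRT20. The EGFR window has neither motif in that stretch, holds 33 CpG dinucleotides and is 75.3% G and C. The 3 keratin windows hold 7, 5 and 2 CpG dinucleotides.

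Ribosomal proteins and basal keratins were among the brightest genes. Of the 30 brightest, 15 encode cytosolic ribosomal proteins, led by RPS10 (9977 signal units), RPL37A (8422), RPL41 (8039) and FAU (7907). KRT14, the basal type I keratin, ranked 2 with 8874, ahead of ACTB, cytoplasmic actin, with 8490. KRT5 was followed at rank 6 by SFN, the 14-3-3 protein stratifin of epithelial cells, with 8345, while its other probe sets gave 5694 and 1292. S100A2, a calcium-binding protein of basal epithelium, ranked 9 with 7791. MT2A and MT1X, metallothioneins that bind zinc and copper, gave 7423 and 6141, and FTL, the light chain of ferritin, 5870.

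GAPDH, a glycolytic enzyme, gave 7644, and CFL1, the actin-severing cofilin, 6758. Among the 100 brightest genes, which are 0.836% of those measured, 40 were in the list of ribosomal proteins, 8 in that of glycolysis, 5 in that of metallothioneins and iron, 4 in that of the actin cytoskeleton and 4 in that of S100 proteins. A further 4 were keratins, and 22 were in no list, among them the ferritin sequence FTH1P5 (5671). These 100 genes carried 26.9% of the summed signal, and the brightest 1196 carried 68.8%. The probe sets of 25 of the 100 bore the suffix _x_at, which marks probes that also match other transcripts, and RPS10, ACTB, GAPDH, PPIA, MT2A and MT1X were among them.

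Keratin signals were graded, from 8874 for KRT14 to 1.8 for KRT33A, a hair keratin. Of 32 keratin genes measured, 14 were over the silent-gene level, or 43.8%, close to the 42.2% of all genes, and 5 gave 1000 or more. Those 5 were the basal keratins KRT14, KRT5 and KRT15 (4185) and the simple epithelial pair KRT18 (3155) and KRT8 (1219). KRT6A, KRT6B, KRT6C and KRT17, keratins of activated keratinocytes, had no value here and were not analysed, so their level is unknown. KRT19, found in basal cells of many mucosae and in simple epithelia, gave 4.4 and was under the level in all 8 alternative settings. KRT8 and KRT18 were each read by 1 probe set with the suffix _x_at.

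The suprabasal keratins were spread over much of that range. KRT16, a keratin of activated and wounded epidermis, gave 732, and KRT76, of the hard palate and gum, 2.6. KRT1 and KRT10, the pair of maturing epidermis, gave 261 and 251, and further probe sets of KRT10 gave 469 and 372. KRT2 (76.7) and KRT75 (90.5) were over the level as well, though not with the level at the 99th percentile of the tissue-restricted genes, while KRT9 (44.8), KRT3 (20.6) and KRT12 (1.9) were under it. Of the simple epithelial keratins, KRT7 (37.9), KRT23 (33.8) and KRT20 (13.4) were under it. Hair keratins were dim, with 2 of 11 over the level, KRT38 at 55.9 and KRT32 at 54.5.

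**Figure D2:**
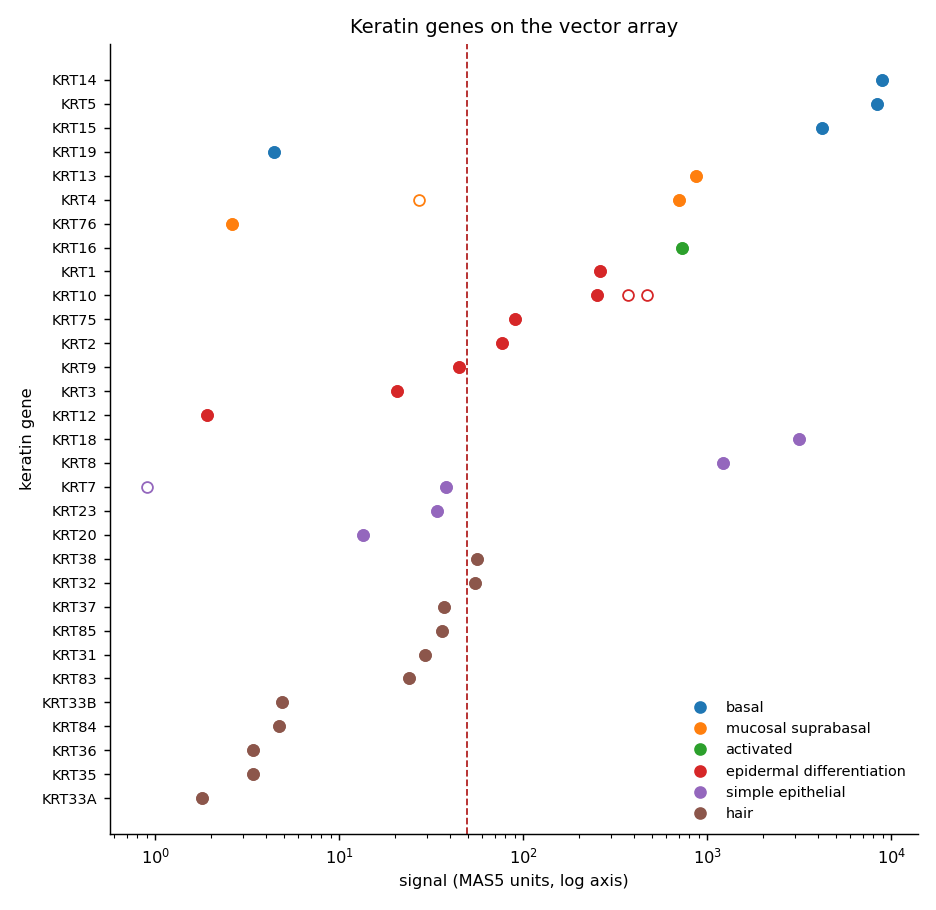
Signals of keratin genes on the vector array (MAS5 units, log axis), grouped by where the keratin is known from. Filled points are the probe set used for the gene, open points its further probe sets, and the dashed line is the silent-gene level. KRT14, KRT5, KRT15, KRT18 and KRT8 lie at 1000 or more, and KRT19 lies at 4.4.

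Genes of the cornified envelope ran from 2870 down to 7.0. Of 25 counted, 14 were over the silent-gene level (56.0%), with a median percentile of 59.2 among all genes. Loricrin was listed under an older symbol and is missing from that count, although LORICRIN was measured and was under the level with 7.4. SPRR1B and SPRR1A, small proline-rich proteins of the envelope, gave 2870 and 2445, and SPRR3, their mucosal relative, 257. PI3, the elastase inhibitor elafin, gave 1283, KLK5, a protease of shedding epidermis, 1565, and PPL, periplakin, 842. CSTA and CSTB, inhibitors of cysteine proteases, gave 724 and 1253. Under the level were FLG, filaggrin, at 7.0, TGM3, an envelope transglutaminase, at 8.5, and CRNN, cornulin, at 18.4. IVL, involucrin, gave 39.6, under the level here and over it in 2 of 8 alternative settings.

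Many of these genes lie in 1 cluster on chromosome 1 with the S100 genes, and bright and dim genes lie partly in runs along it. In order from S100A10 to S100A1, 27 of 61 genes of these families were measured. Of the 27, 16 were over the silent-gene level, a larger share than of all genes. S100A10 (4101) and S100A11 (4149) open the row, followed by TCHH (10.0), FLG, CRNN, CRCT1 (37.9), LCE2B (32.5), SMCP (2.9) and IVL, none of them over it. SPRR1A, SPRR3, SPRR1B and SPRR2B (89.9) come next and were all over it, and LORICRIN, the main envelope protein of skin, gave 7.4. TCHH, CRCT1, SMCP, SPRR2B and LORICRIN are named for their place in the row, which was laid out after signals had been seen.

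Most S100 genes were over the level, 11 of 16 (68.8%). S100A6, calcyclin, gave 3159, S100A13 gave 857, and S100A14 gave 266. S100A8 and S100A9, which pair as calprotectin, gave 1720 and 455, but a further probe set of S100A8 gave 6.1. S100A4 gave 185 and S100A7, psoriasin, 106. S100B, a protein of glia and melanocytes, and S100A5 each gave 1.7, and S100A1 gave 18.8.

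Transcription factors of squamous epithelium gave moderate signals. Of 21 measured, 14 were over the silent-gene level (66.7%), with a median percentile of 72.2. That count was 7 with the level at the 99th percentile, and also 7 with the lowest probe set. CEBPB, a factor of maturing keratinocytes, was the brightest with 858, followed by KLF5 (290), ELF3 (239) and TFAP2C, an AP-2 factor (233). SOX15 gave 220 on 1 probe set and 206 on another, TFAP2A, the AP-2 factor of keratin genes, 158, and KLF4 134. GRHL2, a factor of epithelial junction genes, gave 98.4. SOX2, a gene often gained in squamous carcinoma, gave 29.5 at most over 3 probe sets, and ZNF750, a factor of late maturation, 6.3. FOXN1 (2.5) and TFAP2B (4.6) were dim as well.

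Desmosome genes were uneven, both in the plaque and among the cadherins. Of the plaque genes, JUP, plakoglobin, gave 1746, PKP3 784, PKP1 658 and DSP, desmoplakin, 628, but PKP4 gave 61.1 and PKP2 26.6. PERP, a membrane protein of desmosomes, gave 1638. Of the desmosomal cadherins, DSG3, the form of basal and mucosal layers, gave 103, DSC3 69.3 and DSG2 66.0, whereas DSG1 (0.4), DSC1 (10.9) and DSC2 (12.6) were under the silent-gene level. In all 9 of 13 desmosome genes were over it (69.2%). CDH3, P-cadherin of basal cells, gave 532, and CDH1, E-cadherin, gave 251 on the probe set used and 29.7 on another. Of 17 genes of adherens, tight and gap junctions 10 were over the level (58.8%), among them CTNNA1 (212, with 458 on a probe set with the suffix _x_at), EPCAM (152) and CTNNB1, beta-catenin (122). CLDN4 (27.2), OCLN (19.9) and CLDN3 (3.0), of tight junctions, were not.

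The brightest integrin gene was that of the hemidesmosome chain ITGB4. It gave 1008 and its partner ITGA6 gave 258 and 206 on its probe sets. ITGA3, which also binds laminin, gave 199 and ITGA5, of the fibronectin receptor, 92.1. ITGB1, the chain shared by many integrins, gave 89.0 on the brightest of 5 probe sets and 11.2 or less on the others. Of 23 integrin genes 8 were over the level (34.8%), a smaller share than of all genes, with 1 of the 23 among those that set the level. ITGAV (14.4), ITGA1 (5.8) and the leukocyte chain ITGAL (6.1) were not. ITGAE (217), ITGA10 (54.9) and another leukocyte chain, ITGAM (50.1), were. LAMB3, a chain of the keratinocyte laminin, gave 866, LAMA5 283, PLEC, plectin of the hemidesmosome, 226, and DST 100.7. In that list of laminins and hemidesmosome genes 6 of 13 were over the level (46.2%).

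By the probe set used for each gene, EGFR gave the highest signal of the receptor tyrosine kinases measured. Its 6 probe sets differed widely, as given above, and it was over the level in 6 of 8 alternative settings. Its relatives were lower, with ERBB2 at 106 on 1 probe set and 7.9 on another, ERBB3 at 56.9 and 28.3, and ERBB4 at 23.5 and 6.8. ERBB2 was over the level in 4 of 7 alternative settings that gave it a value and ERBB3 in 3 of 8. The family count of 3 over the level was 0 with the lowest or the plain _at probe sets, and ERBB2 had no value with the latter. Of the EGF family ligands 3 of 7 were over the level (42.9%), near the share of all genes. They were NRG1, neuregulin (221 on the brightest of 6 probe sets, 35.4 or less on the others), HBEGF (102) and TGFA (70). That count was 1 with the level at the 99th percentile, and 0 with the geometric mean or the lowest probe set. EREG (8.5), BTC (3.2) and EGF (2.2) were under the level.

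Of the 41 other receptor tyrosine kinase genes 14 were over the level (34.1%), with a median percentile of 40.3. FGFR3, a fibroblast growth factor receptor of epithelia, gave 460 with 34.8 on a further probe set, and AXL, a receptor of GAS6, gave 350.6 and 52.1. EPHA2 gave 340, EPHB3 225, EPHB4 141 and EPHA1 114, which made ephrin receptors 4 of the 10 brightest in the list. IGF1R gave 104. MET, which binds hepatocyte growth factor, came later in the order with 91.7. Among those under the level were KDR of endothelium at 6.6, PDGFRA and PDGFRB of mesenchyme at 16.2 and 4.1, KIT at 11.3 and FLT3 at 7.2.

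**Figure D3:**
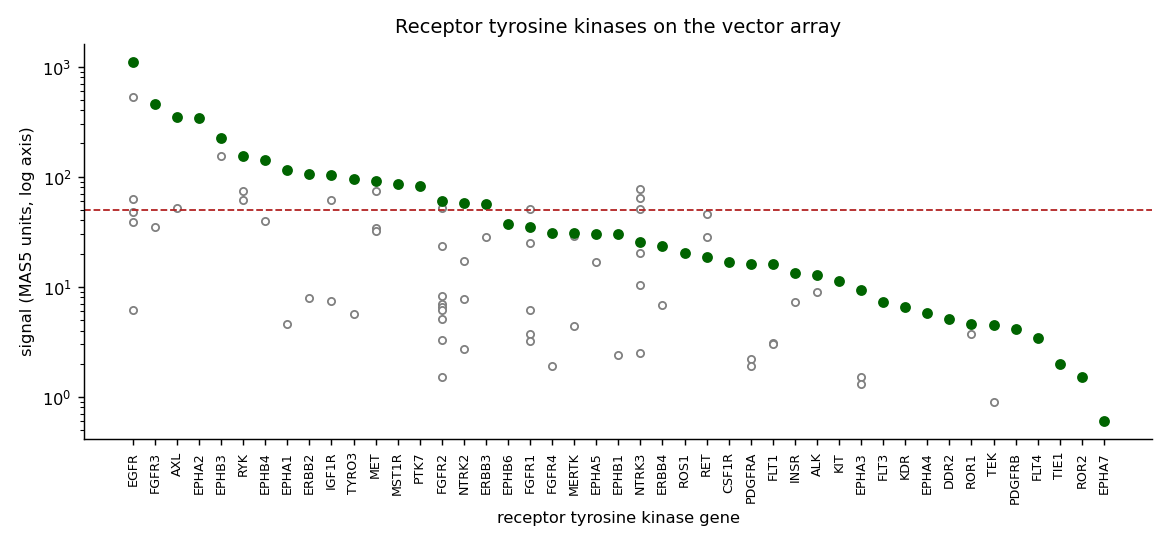
Signals of the EGF receptor family and the other receptor tyrosine kinases (MAS5 units, log axis), ordered from left to right by signal. Filled points are the probe set used, open points further probe sets, and the dashed line is the silent-gene level of 49.2. EGFR lies at 1100 and FGFR3, next in order, at 460, and FGFR1 has its filled point under the line at 34.6 and an open point at 50.7.

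Genes of TGF-beta signalling gave uneven signals. TGFBR2, the ligand-binding receptor, gave 90.1 on 1 probe set and 1.8 on another, and TGFBR1, its signalling partner, 20.3. SMAD3 gave 165 and SMAD2 104, but SMAD4, the partner that both need, gave 7.6 and 4.4 and was under the level in all 8 alternative settings. In all 8 of 20 genes of that list were over it (40%), near the share of all genes. That count was 2 with the level at the 99th percentile and 3 with the lowest probe set. Of 12 Notch pathway genes 8 were over the silent-gene level (66.7%). JAG2, a ligand, gave 511 and 334, NOTCH3 227, HES1, a target, 151, NOTCH1 96.9 and NOTCH2 91.1. NOTCH4, of endothelium, gave 33.7 and DLL3 6.4. Wnt receptors and Hedgehog genes were low, 6 of 18 over the level (33.3%) and none over 100, with SMO at 97.2 and FZD2 at 77.4.

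Of the cytokine receptors, TNFRSF12A, the receptor of TWEAK, gave 545, IFNGR2 341, TNFRSF1A, the main TNF receptor, 226, and IL10RB 139. ACKR3, a chemokine receptor, gave 138.5, and CD40, known from B cells and antigen-presenting cells, 118. Of 42 genes 14 were over the level (33.3%), and IL2RA (37.9), IL6R (35.2) and IL7R (15.6) were not. Nuclear receptors were led by RXRA, the shared retinoid partner, with 707, and ESRRA with 308. RARG, the retinoic acid receptor of epidermis, gave 109, NR3C1, the glucocorticoid receptor, 75, and VDR, the vitamin D receptor, 62.3. Of 32 nuclear receptor genes 11 were over the level (34.4%). ESR1, the oestrogen receptor, gave 35 at most over 9 probe sets, and PGR, the progesterone receptor, gave 2.6.

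Of the genes known as oncogenes in head and neck cancer 15 of 27 were over the silent-gene level (55.6%), with a median percentile of 72.7. Besides EGFR, the brightest were CDK4, the kinase that starts the cell cycle with cyclin D, at 874, HRAS at 483, and FADD at 281. MYC gave 262, AKT1 229 and BCL2L1, an inhibitor of cell death, 218. FADD, CTTN (cortactin, 217) and CCND1 (cyclin D1, 178 and 126 on its probe sets) lie near each other on chromosome 11 in a region often gained in these cancers, and were over the level. So was ANO1 (111), named after its value was seen, while PPFIA1 (46.2), of the same region, was not. FGFR1 (34.6), PIK3CB (39.4) and AKT2 (38.6) were under it. TERT, the telomerase catalytic subunit, gave 1.8, MDM2 gave 14.5 and 18.2 at most over 5 probe sets, and MYCN gave 2.9.

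Tumour suppressors of the same cancers were over the level in 13 of 34 cases (38.2%), near the share of all genes. B2M, the light chain of class I molecules, gave 1207, KEAP1, the inhibitor of NRF2, 232, FAT1, an atypical cadherin, 176, and STK11 137. CDKN1A, the p21 inhibitor of cyclin kinases, gave 103. CDKN2A, which encodes p16, gave 24.9 and 3.8 on its more specific probe sets and 129 on 1 with the suffix _x_at, and CDKN2B, its neighbour, gave 1.9. RB1 gave 39.7 and 12.7, and was over the level in 2 of 8 alternative settings. CASP8 (42.6), the initiator caspase of death receptors, was under it too.

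Metastasis suppressor genes were mostly over the level, 11 of 15 (73.3%). NME1, which encodes Nm23-H1, gave 1373 (rank 213) in these cells without an added copy, and the probe set that NME2 has in common with the read-through transcript of both genes gave 2052. BRMS1 gave 717, NDRG1 550, GSN, gelsolin, 309 and CD82 99.9, while KISS1 gave 2.3. In the NME family NME4, the mitochondrial form, gave 197 and NME3 64.3, and NME6 (35.5), NME5 (13.8) and NME8 (1.1) were under the level.

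The cells carried the transcripts of a dividing culture. Of 30 proliferation genes 28 were over the level (93.3%), with a median percentile of 86.4. RRM2, a subunit of the enzyme that makes deoxynucleotides, gave 1510 on 1 probe set and 295 on another, UBE2C 1140, CDC20 959, TYMS, thymidylate synthase, 788, and the replication helicase genes MCM5 and MCM7 767 and 657. KIF11 (39.2) and NDC80 (25.6) were the 2 under the level. Cyclins B1 and B2 (CCNB1, CCNB2) gave 1104 and 682, whereas CCND2 (17.6) and CCNA1 (20.7) were under it. In the list of cyclins, their kinases and inhibitors 12 of 21 were over the level (57.1%).

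Cell death genes were over the level in 16 of 30 cases (53.3%). CYCS, cytochrome c, gave 1413, DIABLO 555 and BAD 392, and BIK, which promotes death in epithelial cells, 184. Among inhibitors of death BIRC5, survivin, gave 311 and MCL1 146, while BCL2 gave 17.4 at most over 4 probe sets. BAX gave 29.3 and 28.4.

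Mesenchymal genes were low as a list, 7 of 28 over the level (25%), with a median percentile of 33.5. That count was 4 with the level at the 99th percentile of the tissue-restricted genes. S100A4 (185) and ACTA2 are in this list as well and were among the 7, not all of which are named here. SNAI2, the Slug repressor that basal keratinocytes also make, gave 191 and VIM, vimentin, 65.4. SPARC, a matrix glycoprotein, gave 157 on 1 probe set and 11.9 on another. CDH2, N-cadherin, gave 33.9 and 11.2, FN1, fibronectin, 19.2 at most over 6 probe sets, SNAI1 6.0, ZEB1 5.0 and ZEB2 4.1.

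Of 25 metalloproteinase and inhibitor genes 8 were over the level (32%). The brightest was BSG, basigin, a surface inducer of metalloproteinases, with 969. MMP1, interstitial collagenase, gave 471, MMP14, a membrane-bound form, 176, MMP10 141.6 and MMP9, gelatinase B, 79.4, with TIMP1, an inhibitor, at 413. MMP2 (37.0), MMP7 (29.2) and MMP3 (13) were not over it. Serine and cysteine proteases and their inhibitors were more often bright, 23 of 34 (67.6%), with a median percentile of 80.9. SLPI, a secreted inhibitor, gave 1645, KLK10 1300, CTSB, cathepsin B, 925 and KLK8 638. KLK3, the prostate antigen, gave 2.4, and SERPINB4, a squamous carcinoma antigen, 10.5. Its relative SERPINB3 gave 11.3 on the probe set used and 60.7 on another with the suffix _x_at.

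Of 54 cytokine genes 10 were over the level (18.5%), with a median percentile of 32.2, though 3 of the 54, IL2, IL4 and IL5, also served to set it. PDGFA gave 303, BMP7 242, VEGFA, the angiogenic factor, 164 and TGFB1 128. IL1RN, the interleukin-1 receptor antagonist, gave 113 and IL1B 88.2 and 53.1, while IL1A gave 30.8 and IL6 30.1. CXCL8, the neutrophil chemokine, gave 3.4, with 14.3 on a probe set with the suffix _x_at; it is named after its value was seen.

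Genes of class I antigen presentation were among the brightest of their list. HLA-C gave 1471 and HLA-B 814, each read only by probe sets with the suffix _x_at, and the proteasome subunits PSMB9 and PSMB8 gave 309 and 219. CD74, the class II chain, gave 15.0, HLA-DRA 17 and CIITA, the class II activator, 31.8, while HLA-DMB, of class II loading, was over the level with 81.8 and is named after its value was seen. The class I gene HLA-F gave 24.8. In all 18 of 28 genes were over the level (64.3%). In the list of mucosal defence, 14 of 26 were over it (53.8%), with LY6D, a surface protein of squamous cells, at 2406 and LCN2, a lipocalin, at 213. TFF1 (7.7), LTF, lactoferrin (2.5), and LYZ, lysozyme (0.6), which glands secrete, were under it.

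Housekeeping pathways made up most of the lists at the bright end. Translation factors were over the level in 28 of 29 cases (96.6%), with EEF1A1 at 6990, EIF1 at 5942 and EEF1A2, the form of muscle and brain, at 34. Ribosomal proteins were over it in 50 of 52 cases (96.2%), the exceptions being RPLP2 (29.3) and RPL31 (24.2, with 5540 on a probe set with the suffix _x_at). Oxidative phosphorylation genes were over it in 37 of 39 cases (94.9%), led by COX8A (4570) and ATP5F1B (4231), with COX7A1, a muscle form, at 4.1. Of 23 glycolysis genes 19 were over it (82.6%), among them ALDOA (5592), ENO1 (5377), LDHA (4374) and PKM (4224). HK3 of leukocytes gave 3.2 and PGAM2 of muscle 1.4.

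Detoxifying genes were bright as well, 25 of 35 over the level (71.4%), with a median percentile of 89.6. GSTP1, a glutathione transferase of squamous epithelium, gave 3964, PRDX1, a peroxidase of the NRF2 programme, 2682, AKR1C2 2095 and NQO1 1088. AKR1C1, whose sequence is nearly that of AKR1C2, gave 30.6 on the probe set used and 2728 and 2104 on others with the suffix _x_at, so the 2 genes cannot be told apart here. ALDH3A1, an aldehyde dehydrogenase of cornea and upper airway, gave 903, while ALDH1A1 gave 2.9. Chaperones were over the level in 24 of 30 cases (80.0%), with HSPB1 at 3478, and genes of cholesterol and lipid synthesis in 18 of 23 (78.3%), with SCD, a desaturase, at 608. Actin cytoskeleton genes were over it in 27 of 36 (75%), and muscle actin ACTA1 gave 5.2. In the metallothionein and iron list 8 of 11 were over it (72.7%), with MT1G at 18.4 on the probe set used and 1665 on 1 with the suffix _x_at.

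Surface proteins over the level were 21 of 33 (63.6%). SLC7A5, an amino acid transporter, gave 3685 and its partner SLC3A2 922. CAV1, caveolin, gave 2347, CD44, the hyaluronan receptor, 1253, SDC1, a syndecan of epithelia, 1252 and CD9 1073. NT5E (21.1), PROM1 (24) and VCAM1 (16.4) were under it.

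Lists of markers were set for cells that a culture or a tumour could also hold. None of 9 endothelial, 12 leukocyte and 6 melanocyte genes was over the level, though 5 of the leukocyte and 3 of the melanocyte genes also served to set it. In other settings up to 4 leukocyte, 1 endothelial and 1 melanocyte gene were over the level. Some leukocyte genes outside that list were over it too, among them CD53 (81.4), CD84 (79.8), CD5 (56.8) and CD48 (53.2). They are named after their values were seen, and how many such genes were over the level was not counted. CD5 also served to set the level. Others outside the list that did so were under it, such as CD8A (11.5), LCK (5.6), CD79B (5.1) and CD3G (4.5). The signals of the listed markers ran from 1.8 to 31.9, from 6.5 to 44.9 and from 8.9 to 29.5, and no marker was listed at 0. Of 12 fibroblast genes 2 were over it, FBLN1 (86.1) and ACTA2 (50.5), while COL3A1 (14) was not. COL1A1 and DCN gave 11.2 and 11.5 on the probe sets used and up to 111.5 and 49.4 on others with the suffix _x_at. Of 9 neuroendocrine genes 2 were over it, CHGB (66.2) and UCHL1 (60.2). Of 13 genes of glands and simple epithelium 4 were, KRT18, KRT8, CEACAM5 (81.6) and PIGR (58.0).

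**Figure D4:**
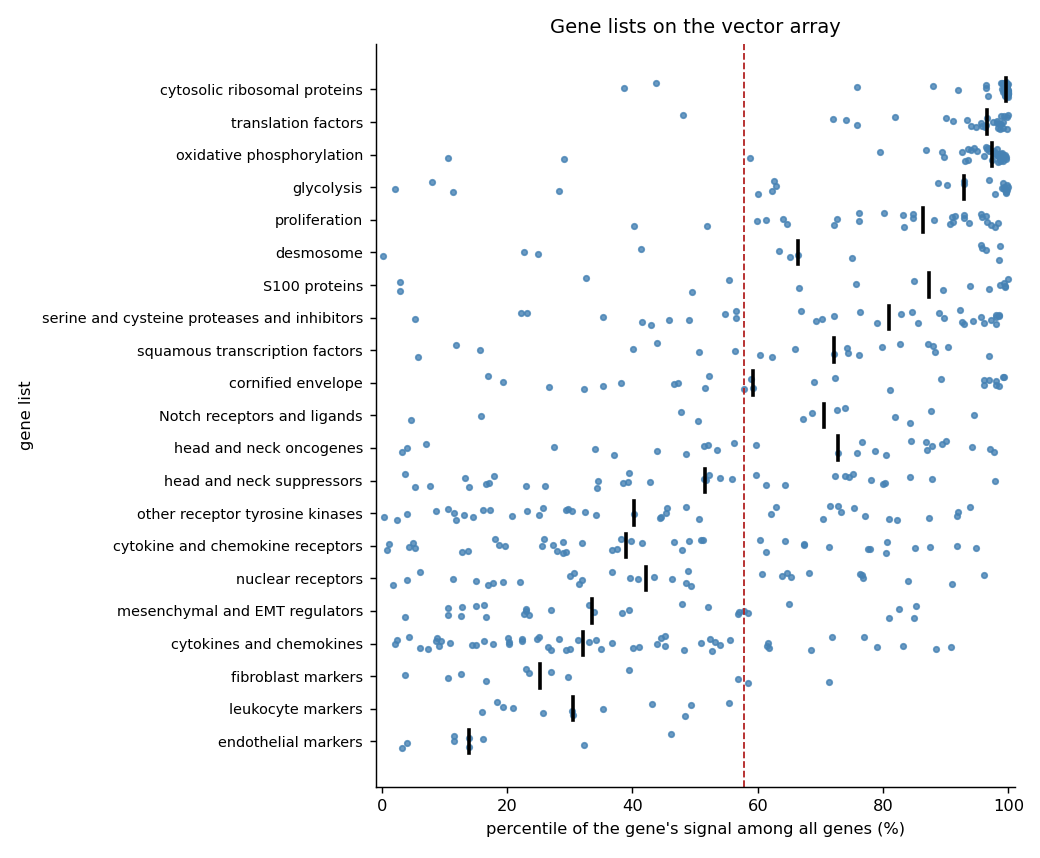
Percentile of each listed gene's signal among all 11963 genes of the vector array, with 1 point per gene and a black bar at each list's median. The dashed line is the silent-gene level, under which 57.8% of genes lie. Ribosomal proteins have a median percentile of 99.6 and endothelial markers of 13.9.

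Bright and dim genes also differed in their promoter windows and length, as a description over 9563 genes with a window in the RefSeq table, which are not independent replicates. TATAA or ATAAA, searched on the gene's own strand 40 to 16 bases before the start and allowed to overlap, was found in 13.3% of genes in the dimmest of 10 equal groups of all genes by signal, 3.73% in the ninth and 7.21% in the brightest. Over all 27305 windows listed, 6.58% held it. Among the 100 brightest genes 22 of the 85 with a window held it (25.9%). Keratin windows held it in 6 of 8 genes over the silent-gene level and in 13 of 13 under it. The median number of CpG dinucleotides per window was 16 in the dimmest group and 27 in the brightest, and it was 4 in the tissue-restricted genes. The median gene length was 28.99 kb in the dimmest group, 40.7 kb in the fifth and 15.9 kb in the brightest, and 4.74 kb for the 100 brightest genes.

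**Figure D5:**
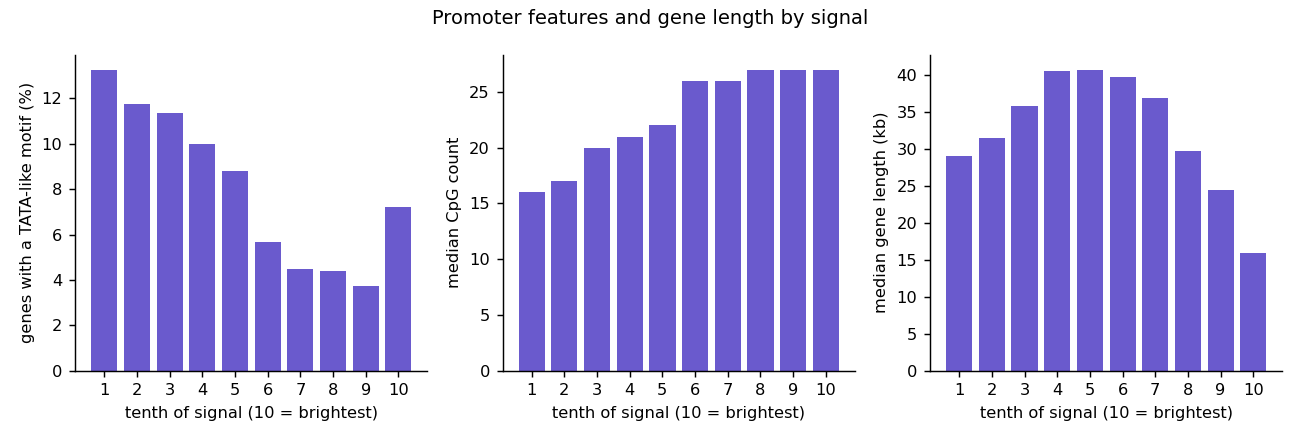
Share of genes with a TATA-like motif (%), median CpG count per promoter window and median gene length (kb), each for 10 equal groups of genes by signal, from 1, the dimmest, to 10, the brightest. The motif share falls from 13.3% to 3.73% in the ninth group and is 7.21% in the brightest, while the CpG count rises from 16 to 27.

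With 1 array there was no measure of error. The spread between probe sets of the same gene is given as a description, since probe sets also differ in how well they bind. Of 4310 genes with several probe sets, 2235 were over the silent-gene level by the one used. For 1222 of them (54.7%) the second brightest was over it as well, and for 788 (35.3%) all were. The median gap between the brightest and the second was 2.19-fold. Genes with several probe sets were over the level more often than those with 1 (51.9% against 36.7%). The probe set used was the brightest of those not ending in _x_at, where a gene had any, and the reason for the difference was not tested.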

How the data were processed

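Total RNA of 3 CAL 27 transfectants was measured on 1 Affymetrix array each, and only the vector array was used. The authors deposited intensity on a linear scale, 1 signal for each probe set, and MAS5 is the tool named in the submitters' processing notes. The version, the scaling target and detection calls are not given in the sources used here. Signals were used as deposited, since multiplying an array changes no rank. Of 20114 annotated probe sets, 19071 had 1 gene symbol, and 19059 of these matched a RefSeq gene by ID (GRCh38.p14). For each gene the probe set not ending in _x_at was taken first, then the brightest. The silent-gene level was the 95th percentile of 189 tissue-restricted genes out of 212 listed. Percentiles count genes with a lower signal. No test was run. The 51 gene lists came from general knowledge. Members and lists were chosen with earlier results of these data known.

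Named genes were the 30 brightest, the given markers, and from each list all members where 12 or fewer were measured, otherwise up to 10 of the highest signal and up to 10 not over the level in list order. Exceptions are stated. Alternatives were levels at the 90th and 99th percentiles, the array's median and 70th percentile, the geometric mean or the lowest of a gene's probe sets, plain _at probe sets, and, added after seeing the data, the brightest of all probe sets. The steps were run on simulated data, where the level drawn from such a number of genes varied from draw to draw. A first single draw called far too many genes that were off, so the check was changed to the mean over many draws. The level was drawn there from genes known to be off, so the simulation cannot show whether the tissue-restricted genes were silent in these cells. The number of arrays limits the precision. Python 3.11.15, numpy 2.4.6, pandas 2.3.3 and matplotlib 3.10.9 were used.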

Additional observations from a re-analysis of the deposited data

How the results depend on the processing

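No paired analysis was possible because each group has 1 array and none was compared. The 5046 genes over the silent-gene level were 2704 with the level at the 99th percentile of the tissue-restricted genes and 2634 with plain _at probe sets, which leave 8361 genes, and between 3923 and 7024 in the other settings. With those plain probe sets 1 of the given markers was over the level, and KRT13, read by 1 probe set, had no value there. With the lowest probe set 2 were over it, against 4 otherwise. Of the 100 brightest genes 33 were shared with plain _at probe sets and 81 to 95 with the other choices of probe set. The number of lists with a larger share over the level than all genes was 33 and ran from 29 to 35. Of 50 list counts besides the markers, 24 moved by over 1.5 times with the 99th percentile, 36 with plain probe sets and 15 with the lowest, against 1 to 8 elsewhere. Over the level in every setting that gave a value were 2133 of the 5046 genes, and under it in every one 4886 of the 6917 others. A gene without a plain _at probe set had no value in that setting, so counts there also fall through missing genes. Dim signals are limited by signal over background, and the causes of these moves were not tested further.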

Other observations

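In 6 genes under the silent-gene level a probe set with the suffix _x_at gave 1000 or more, namely AKR1C1 (2728), ATP5MG (1147), GNAS (1865), MT1G (1665), NACA (1376) and RPL31 (5540), while the probe set used gave between 12.5 and 33.3. These genes were picked after their values were seen. PTPRO, a receptor phosphatase, ranked 83 with 3220 on 1 probe set and gave 11.1 on its other. FXYD3, an ion transport regulator of epithelia, gave 3043 and 538. MIF, a cytokine, gave 3460 (rank 78), while the brightest member of the cytokine list, which did not hold it, was PDGFA with 303.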
